A study of Homo sapiens with 4 samples.

Results

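A set of 10 genes of the neuronal microtubule system, out of the 31907 gene names with a count in the series, was followed in HGC-27 cells, a human gastric cancer cell line. They were picked by name: the tubulin genes TUBB3, TUBB2A, TUBB2B, TUBA1A and TUBB6, the microtubule-associated protein genes MAP1B, MAP2 and MAPT, and the kinesin-1 heavy chain genes KIF5C and KIF5A. The choice was made with the differences between the groups of these 4 libraries already known, so those differences are given as a description. All 10 genes had counts in all 4 libraries. The cells had been kept for 48 h with PBS, the vehicle, in 2 libraries, or with recombinant human IL-17B (rIL-17B) at 200 ng/ml in the other 2. The study used this comparison to look for signaling downstream of IL-17B and its receptor IL-17RB. The labels name 1 cell line, no genetic change and no separate cultures, so the spread between libraries of a group may be technical. They also speak of monocytes in the library protocol, while the sample description gives HGC-27 cells.

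Microtubules are polymers of alpha- and beta-tubulin pairs, and the human genome holds several genes for each partner. Neurons express a mixture of isotypes of their own, in which the beta-tubulins TUBB3, TUBB2A and TUBB2B and the alpha-tubulin TUBA1A are prominent, and coat their microtubules with the structural proteins MAP1B, MAP2 and tau (MAPT). Kinesin-1 motors walk along these tracks and carry vesicles and mitochondria into the axon, and of its heavy chain genes KIF5B is expressed widely while KIF5A and KIF5C are mainly neuronal. Several of the tubulin and MAP genes are also expressed outside neurons, in tumor lines and in mesenchymal cells among others.

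Each library held between 12888029 and 17555879 counts on genes, and levels are given as CPM, the count divided by the library total and scaled to 1000000. A floor of 3 counts, between 0.171 and 0.233 CPM, was used for genes at 0 and for counting the markers seen. Levels from fewer counts are printed as counted and lie below this floor. These floors and all intervals hold the error of counting alone, as PCR copies of a molecule are not independent of each other. The library rIL-17B replicate 1 stood apart from the other 3. Over genes, its counts differed from theirs with a chi-square of 126 to 163 per degree of freedom, against 3.45 between the PBS libraries and 5.93 and 7.93 between these and rIL-17B replicate 2. Results that rest on it are therefore given with and without it. The labels name no batch, and a property of this 1 library cannot be told apart from its treatment.

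The neuronal label was checked against 17 neuron markers. Of these, 14 were over the floor of 3 counts in each PBS library and 13 in rIL-17B replicate 2, but 7 in rIL-17B replicate 1. DCX and ELAVL4 were at 0 counts in all 4 libraries, NEFL had at most 1 count, and RBFOX3 between 2 and 6. UCHL1, which many tumor lines also express, had the most counts of them, with 2745 and 2548 counts in the PBS libraries and 1 in rIL-17B replicate 1, against 2536 in rIL-17B replicate 2. Of the others, the adhesion molecule NCAM1 had 180, 208, 0 and 151 counts in PBS replicate 1, PBS replicate 2, rIL-17B replicate 1 and rIL-17B replicate 2, and GAP43 and STMN2 were likewise scarce in rIL-17B replicate 1 alone. Not all markers went this way. Of the 11 with enough counts to test, 8 were at least 2-fold below the PBS mean in rIL-17B replicate 1 and 1, NEFH, at least 2-fold above. SNAP25 was not lower there than with PBS. The summed level of the 17 markers was 348 and 385 CPM in the PBS libraries, 80.0 CPM in rIL-17B replicate 1 and 296 CPM in the remaining library. The 10 genes are called neuronal here for their usual role, and the identity of the cells that expressed them was not tested. Other markers moved with rIL-17B replicate 1 as well. The 10 mesenchymal markers summed to 54889 and 53937 CPM with PBS and 1208 CPM in rIL-17B replicate 1, against 45917 CPM in rIL-17B replicate 2. The 10 epithelial markers summed to 805 and 815 CPM, 1859 CPM and 1032 CPM in the same order. KRT8 and KRT18 led this sum, and TFF1 and TFF3 were at 0 counts in all 4 libraries. Of the 6 with enough counts to test, 2 were at least 2-fold above the PBS mean in rIL-17B replicate 1. Another, KRT19, was at least 2-fold below it. The 10 monocyte and macrophage markers stayed between 8.55 and 11.3 CPM in sum, with LYZ at no more than 4 counts and CD68 at no more than 2 in any library, but 7, 6, 2 and 6 of them were over the floor. PTPRC had 47, 22, 0 and 36 counts, ITGAM 16, 10, 0 and 12 and CD14 23, 20, 4 and 21, whereas CSF1R, with 62, 72, 119 and 108 counts, was the highest in rIL-17B replicate 1. The part of these shifts in the values of the 10 genes was not tested, and in bulk RNA a smaller number of cells of a type and less RNA per cell cannot be told apart.

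Levels of the 10 genes spanned a wide range. Per kilobase of merged exon, used here to compare genes of unlike length, TUBA1A was the highest at 129 ± 28.3 CPM per kilobase with PBS (mean ± SD, n = 2). TUBB6 followed at 29.6 ± 1.05 and MAP1B at 26.8 ± 0.968 CPM per kilobase. TUBB2A reached 15.6 ± 3.42 and TUBB2B 13.6 ± 3.72 CPM per kilobase. Their SDs overlapped, but TUBB2A was the higher of these neighbours in each PBS library. MAP2 was at 5.82 ± 1.22 CPM per kilobase. KIF5C at 1.84 ± 0.688 and KIF5A at 1.19 ± 0.176 CPM per kilobase overlapped within their SDs, with KIF5C the higher in each PBS library. MAPT, at 0.477 ± 0.0541, and TUBB3, at 0.319 ± 0.0303 CPM per kilobase, were the lowest. TUBB3 is the beta-tubulin most used as a neuronal marker, and its place in this order is uncertain because most of its sequence is shared with other transcripts. The merged exons were also much longer than a single coding transcript for TUBB3 (1769 bases), MAPT, TUBB6 and TUBA1A, which lowers their values on this scale.

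**Figure D1:**
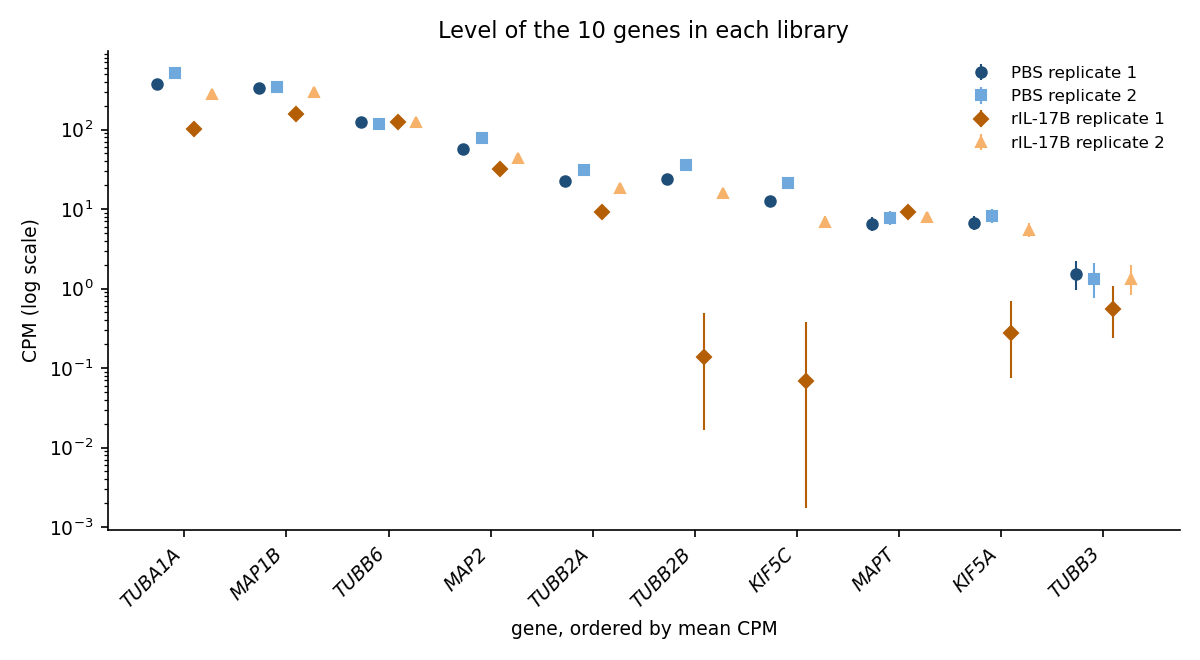
Level of each of the 10 genes in each library, in CPM on a log axis, with the exact 95% binomial (Clopper-Pearson) interval of counting as the vertical line. The diamonds of rIL-17B replicate 1 lie at or below 0.274 CPM for TUBB2B, KIF5C and KIF5A, whereas the 4 symbols of TUBB6 lie between 119 and 126 CPM.

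TUBA1A, the main alpha-tubulin of developing neurons, was the highest of the 10 per kilobase in every library but rIL-17B replicate 1, where it was at 29.8 and TUBB6 at 29.9 CPM per kilobase (gene at chr12:49184796-49189324, minus strand, GRCh38). It was at 372 CPM in PBS replicate 1, 509 CPM in PBS replicate 2 and 102 CPM in rIL-17B replicate 1, against 281 CPM in rIL-17B replicate 2. Both rIL-17B libraries were below both PBS libraries, and the PBS libraries were themselves apart by more than counting allows. The count ratio of PBS replicate 2 to PBS replicate 1, per library total, was 1.37 (exact 95% interval 1.32 to 1.42). Against both PBS libraries together, rIL-17B replicate 1 had 23.5% (22.2 to 24.8) and rIL-17B replicate 2 had 64.8% (62.7 to 67.0) of the level. Its exons overlap those of TUBA1C on the other strand. Of its 100-base windows 18.3%, and of its 50-base windows 41.1%, also occur in transcripts of other genes, chiefly TUBA1B and TUBA1C. The read length is not given, so the share that applies to these reads is not known. The relatives TUBA1C and TUBA1B were higher in rIL-17B replicate 1 than elsewhere, with TUBA1C at 169, 164, 312 and 185 CPM and TUBA1B at 119, 117, 215 and 123 CPM in the same order of libraries.

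The last codons of the beta-tubulin genes encode the acidic tail on the outside of the microtubule, where motors and modifying enzymes bind. The last 60 coding bases before the stop codon are shown because they tell most of these isotypes apart, TUBB2A and TUBB2B excepted. Capitals mark bases that did not match TUBB2A when the whole coding sequences were aligned (GENCODE 29, GRCh38). All 5 stretches lie in exon 4 of 4, in coding sequence: chr6:3153866-3153925 minus for TUBB2A, chr6:3224754-3224813 minus for TUBB2B, chr16:89935742-89935801 plus for TUBB3, chr18:12326068-12326127 plus for TUBB6 and chr6:30724335-30724394 plus for TUBB, the widely expressed relative.
TUBB2A: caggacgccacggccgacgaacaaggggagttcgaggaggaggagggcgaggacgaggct
TUBB2B: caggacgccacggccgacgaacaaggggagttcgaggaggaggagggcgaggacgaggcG
TUBB3: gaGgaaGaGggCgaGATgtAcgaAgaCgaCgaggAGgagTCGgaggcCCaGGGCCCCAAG
TUBB6: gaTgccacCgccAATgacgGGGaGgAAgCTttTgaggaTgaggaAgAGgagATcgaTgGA
TUBB: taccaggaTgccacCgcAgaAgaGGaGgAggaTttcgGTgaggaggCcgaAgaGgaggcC
TUBB2B had 1 base in capitals, TUBB 15, TUBB6 23 and TUBB3 28. TUBB2A and TUBB2B, neighbours on chromosome 6, are near-copies, with 98.1% identical coding bases (25 differences over 1338 bases) and an identical run of 725 bases. The 60-base stretch where they differ most, coding bases 121 to 180 across exons 2 and 3 (chr6:3155722-3156089 minus and chr6:3226256-3226606 minus, intron included), is shown with the 7 differing bases in capitals.
TUBB2A: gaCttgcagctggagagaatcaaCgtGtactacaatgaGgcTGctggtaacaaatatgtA
TUBB2B: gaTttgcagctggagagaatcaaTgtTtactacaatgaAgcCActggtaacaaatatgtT
Of all 100-base windows of the transcripts, 56.4% of TUBB2A and 46.2% of TUBB2B occur in a transcript of another gene. Of the 50-base windows, 65.5% of TUBB2A and 52.2% of TUBB2B do. How reads that match both were counted is not given in the sources used here, so the split between them is uncertain.

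TUBB2A, an abundant beta-tubulin of brain (chr6:3153669-3157526, minus strand), had 362 and 401 counts with PBS and 133 in rIL-17B replicate 1, against 327 in rIL-17B replicate 2. These were 22.8, 31.1, 9.10 and 18.6 CPM. TUBB2B, its near-copy linked to neuronal migration (chr6:3224261-3231730, minus strand), had 384 and 460 counts with PBS and 2 in rIL-17B replicate 1, against 282 in rIL-17B replicate 2. These were 24.1, 35.7, 0.137 and 16.1 CPM. For both genes PBS replicate 2 was the highest library and rIL-17B replicate 1 the lowest, with no overlap between the groups. Per kilobase the near-copies were at 13.2 and 11.005 CPM per kilobase in PBS replicate 1, 18.02 and 16.3 in PBS replicate 2 and 10.8 and 7.32 in rIL-17B replicate 2, but at 5.27 and 0.0624 in rIL-17B replicate 1. In that library TUBB2A was at 34.3% (28.3 to 41.3) of the PBS libraries and TUBB2B at 0.467% (0.0564 to 1.69). In rIL-17B replicate 2 the values were 70.3% (61.6 to 80.1) for TUBB2A and 54.8% (47.7 to 62.8) for TUBB2B. TUBB2B shares exon bases with PSMG4 on the other strand.

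TUBB3, the class III beta-tubulin (chr16:89921392-89938761, plus strand), had only 24 and 17 counts with PBS and 8 in rIL-17B replicate 1, against 23 in rIL-17B replicate 2. These were 1.51, 1.32, 0.547 and 1.31 CPM. rIL-17B replicate 1 was at 38.4% (15.6 to 83.1) of the PBS libraries, and rIL-17B replicate 2 was at 92.0% (52.7 to 157), a wide interval at this depth that includes no difference. TUBB3 also shares exons with the read-through gene AC092143.1 on the same strand, and 89.0% of its 100-base windows occur in another gene's transcript, so its count is uncertain. TUBB6, a beta-tubulin expressed in many tissues (chr18:12307669-12344320, plus strand), was at 125, 119, 123 and 126 CPM from 1532 to 2209 counts. Its 4 libraries overlapped, and the ratios to the PBS libraries were 101% (95.1 to 107) in rIL-17B replicate 1 and 103% (97.55 to 109) in rIL-17B replicate 2. Per library total, the level of TUBB6 was thus between 97.5% and 103% of the PBS mean in every library, the one that stood apart included. With library totals rescaled by TMM, its log2 ratio to the PBS mean in rIL-17B replicate 1 was -0.12, against 0.014 without. It shares exon bases with AFG3L2 on the other strand.

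**Figure D2:**
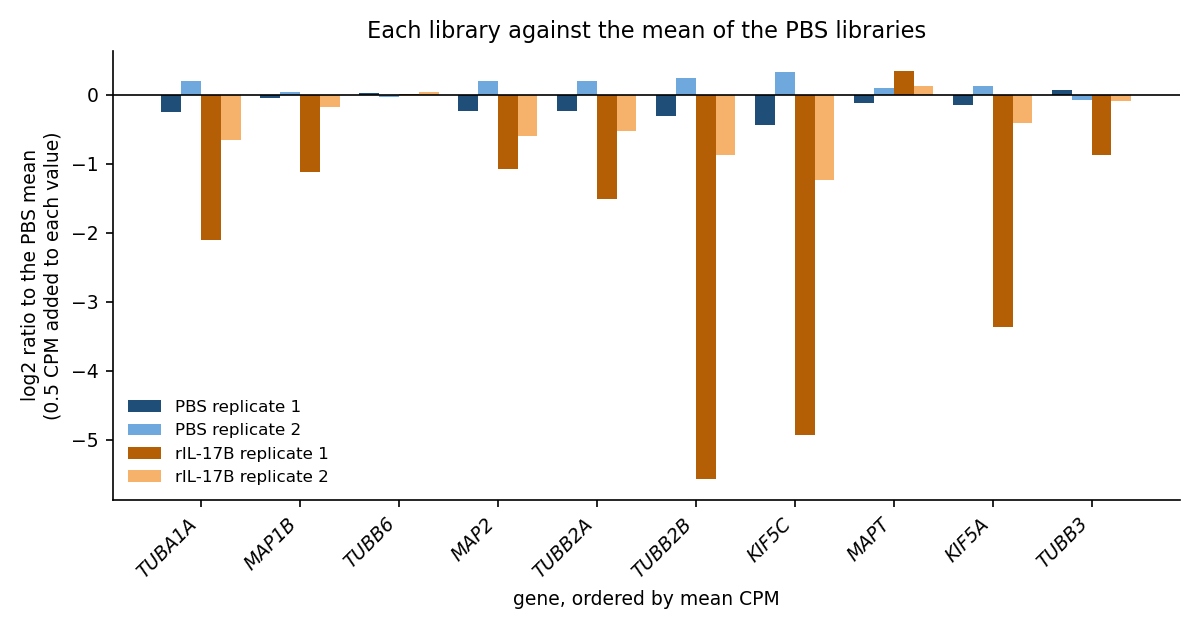
Log2 ratio of each library to the mean of the PBS libraries for the 10 genes, with 0.5 CPM added to each value. Bars of rIL-17B replicate 1 reach -5.58 for TUBB2B and -4.94 for KIF5C, those of rIL-17B replicate 2 reach -1.24 for KIF5C, and TUBB6 and MAPT have no bar below -0.113.

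MAP1B, which binds and stabilises microtubules in growing axons (chr5:72107234-72209570, plus strand), was at 330.2, 347, 156 and 299 CPM in PBS replicate 1, PBS replicate 2, rIL-17B replicate 1 and rIL-17B replicate 2. The PBS libraries were close, with a ratio of 1.05 (1.01 to 1.10). Against them rIL-17B replicate 1 was at 46.2% (44.1 to 48.3) and rIL-17B replicate 2 at 88.4% (85.5 to 91.4). MAP2, the microtubule-associated protein of dendrites (chr2:209424058-209734118, plus strand), was at 57.3, 77.2, 31.5 and 44.3 CPM in the same order. The groups of MAP2 did not overlap, and its rIL-17B libraries were closer to each other than those of the other lower genes, at 47.6% (42.9 to 52.8) and 66.9% (61.5 to 72.8) of the PBS libraries. MAPT, the gene of tau (chr17:45894382-46028334, plus strand), had 104, 99, 134 and 138 counts, or 6.54, 7.68, 9.17 and 7.86 CPM. It alone of the 10 had both rIL-17B libraries above both PBS libraries. Per library total, the interval of the ratio left out 100% in rIL-17B replicate 1, at 130.0% (104 to 163), but not in rIL-17B replicate 2, at 111% (89.2 to 139). The first depended on the scaling. With library totals rescaled by TMM, the log2 ratio of MAPT to the PBS mean in rIL-17B replicate 1 was 0.22, against 0.35 without, and no interval was computed on that scale. MAPT overlaps MAPT-AS1 on the other strand, and their reads cannot be told apart without knowing the use of strand.

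KIF5C, a kinesin-1 heavy chain of neurons (chr2:148875250-149026759, plus strand), had 198 and 276 counts with PBS and 1 in rIL-17B replicate 1, against 121 in rIL-17B replicate 2. These were 12.4, 21.4, 0.0684 and 6.89 CPM. It was the member with the widest gap between the PBS libraries, with a ratio of 1.72 (1.43 to 2.08), and the lowest in rIL-17B replicate 2, at 41.9% (34.002 to 51.2). In rIL-17B replicate 1 its single count gave 0.416% (0.0105 to 2.33). KIF5A, the kinesin-1 heavy chain best known from axonal disease (chr12:57549998-57586632, plus strand), had 106 and 106 counts with PBS and 4 in rIL-17B replicate 1, against 96 in rIL-17B replicate 2. These were 6.66, 8.22, 0.274 and 5.47 CPM, at 3.72% (1.00 to 9.66) and 74.3% (57.7 to 94.95) of the PBS libraries. Neither gene shares a 100-base window with another gene. KIF5B, the widely expressed heavy chain, was at 259.7, 262, 283 and 261 CPM. Per library total this was 108% (104 to 113) in rIL-17B replicate 1 and 100.05% (96.4 to 104) in rIL-17B replicate 2. The first depended on the scaling. With library totals rescaled by TMM, the edgeR fit without rIL-17B replicate 2 gave a log2 fold change of -0.019 for KIF5B.

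Shares within a family do not depend on the library total and were read on the scale of CPM per kilobase. TUBA1A made up 49.99% and 58.1% of the alpha-tubulin sum with PBS and 13.2% in rIL-17B replicate 1, against 41.0% in rIL-17B replicate 2. The alpha-tubulin sum itself was 218, 256.2, 225 and 201 CPM per kilobase in the same order, so in rIL-17B replicate 1 it lay within the range of the PBS libraries. Of the beta-tubulin sum, TUBB2A took 2.48% and 3.34% with PBS, 0.621% and 1.84% with rIL-17B. TUBB2B took 2.07% and 3.02% with PBS, 0.00735% and 1.25% with rIL-17B, and TUBB3 never more than 0.0641%. TUBB6 took 5.71% and 5.35% with PBS and 3.52% and 5.23% with rIL-17B. Its lower share in rIL-17B replicate 1 came with a higher beta-tubulin sum, 849 CPM per kilobase against 531 to 585 in the other libraries, of which TUBB and TUBB4B held 56.3% and 39.5%. Of the kinesin-1 heavy chains, KIF5C and KIF5A together were the minor part, with KIF5B at 94.8%, 92.5%, 99.9% and 96.5%. Among MAP2, MAPT and MAP4, the widely expressed relative, MAP2 took 12.0% and 15.1% with PBS and 5.72% and 9.07% with rIL-17B. In the MAP1 family, MAP1B took between 61.2% and 72.0% in all libraries, and MAP1A, another neuronal MAP, was low too in rIL-17B replicate 1 (129, 139, 23.1 and 114 CPM).

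**Figure D3:**
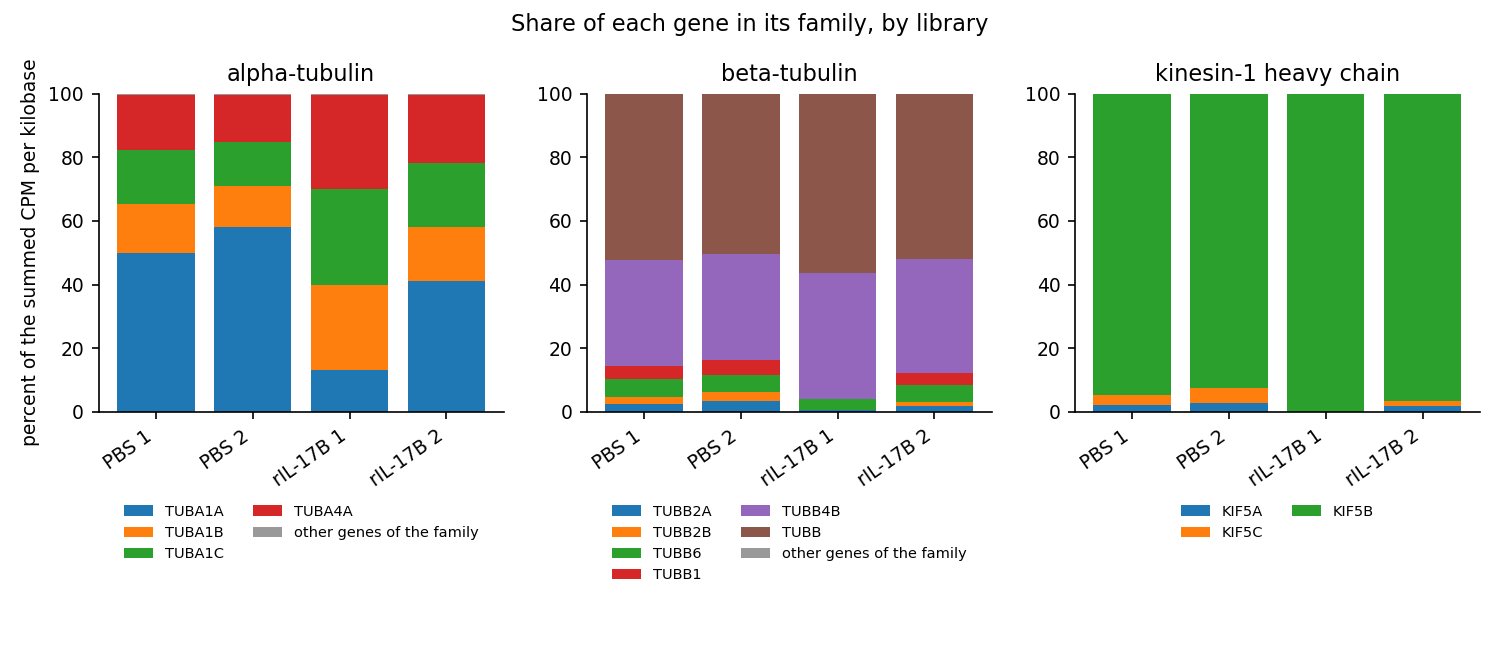
Share of each gene in the summed CPM per kilobase of the alpha-tubulins, the beta-tubulins and the kinesin-1 heavy chains, in percent, for each library. The TUBA1A block shrinks from 49.99% and 58.1% with PBS to 13.2% in rIL-17B replicate 1, against 41.0% in rIL-17B replicate 2, and the KIF5A and KIF5C blocks are too thin to see in rIL-17B replicate 1.

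The 250 bases before the starts of TUBB2A, TUBB2B and KIF5C are shown (RefSeq, GRCh38.p14). They were chosen after the search, as the 2 members with a match to the cyclic AMP response element and the near-copy of TUBB2A, which has none. TUBA1A, MAP1B and MAP2, also below both PBS libraries, had no match to it and are not shown. Capitals mark matches, on either strand, to the GC box GGGCGG, the CCAAT box CCAAT, the TATA box TATAAA and the cyclic AMP response element TGACGTCA. GC box matches may overlap each other.
TUBB2A, chr6:3157545-3157794 minus: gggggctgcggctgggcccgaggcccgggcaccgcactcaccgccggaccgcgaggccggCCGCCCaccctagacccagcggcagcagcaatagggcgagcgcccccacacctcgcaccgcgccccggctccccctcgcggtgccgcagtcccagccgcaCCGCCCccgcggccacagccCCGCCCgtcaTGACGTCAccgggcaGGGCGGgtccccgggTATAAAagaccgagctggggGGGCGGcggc
TUBB2B, chr6:3227654-3227903 minus: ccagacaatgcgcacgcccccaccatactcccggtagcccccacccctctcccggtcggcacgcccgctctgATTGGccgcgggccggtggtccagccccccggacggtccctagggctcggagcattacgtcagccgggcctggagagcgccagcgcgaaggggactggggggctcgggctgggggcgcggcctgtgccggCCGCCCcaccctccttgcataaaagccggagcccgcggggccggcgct
KIF5C, chr2:148874977-148875226 plus: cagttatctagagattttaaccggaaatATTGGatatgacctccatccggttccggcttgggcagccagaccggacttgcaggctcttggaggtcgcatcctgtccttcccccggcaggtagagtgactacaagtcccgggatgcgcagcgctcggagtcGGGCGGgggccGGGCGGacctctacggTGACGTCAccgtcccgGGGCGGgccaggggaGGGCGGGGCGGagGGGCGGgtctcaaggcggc
The full cyclic AMP response element was found 60 bases before the start of TUBB2A and 63 bases before that of KIF5C, and in 1.65% of 35116 promoter windows of this length. It was in no window of TUBB2B or of the other members in the table, which held 14 windows for 8 of the 10 genes and none for KIF5A and MAPT. The GC box was in 42.6%, the CCAAT box in 32.0% and the TATA box in 10.7% of all windows, and 6 of the 8 genes had a GC box in at least 1 window. The letters TTCAGCACC, from the left part of the RE1 element through which the repressor REST silences neuronal genes outside neurons, were in 0.288% of all windows and in no window of the 8 genes. These searches were chosen after the values were seen, and a match describes the letters only.

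Across the 4 libraries, 8 of the 10 genes had both rIL-17B libraries below both PBS libraries, TUBB3 only narrowly at 1.31 against 1.32 CPM. Such a gap was found in 27.5% of the 16361 genes tested. MAPT was above, as were 31.5% of all genes. The exact order PBS replicate 2, PBS replicate 1, rIL-17B replicate 2, rIL-17B replicate 1, from high to low, was noticed after the values were seen and held for 7 genes (TUBB2A, TUBB2B, TUBA1A, MAP1B, MAP2, KIF5C and KIF5A), against 15.3% of all genes. The same 7 were at least 2-fold below the PBS mean in rIL-17B replicate 1, as were 18.6% of all genes. Only KIF5C passed 2-fold in rIL-17B replicate 2, where 0.575% of all genes did. TUBB2B and KIF5C were among the 342 genes with at most 3 counts in rIL-17B replicate 1 and at least 100 in each other library, 3.21% of the 10664 genes that high. Because the 10 genes were chosen with this contrast known, nothing is read from these shares.

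Several of the 10 genes also differed between the PBS libraries. The choice of genes did not name this contrast, but the PBS values were part of the differences known when it was made. The values are therefore a description, and nothing is read from the shares of all genes given with them. The median log2 ratio of PBS replicate 2 to PBS replicate 1 was 0.36 over the 10 genes, against 0.02 over all genes tested. KIF5C, at 0.76, was as far apart as the most divergent 2.40% of genes, and TUBB2B, at 0.55, as the most divergent 6.56%. MAP1B, at 0.07, and TUBB6, at -0.07, were close. The 2 PBS libraries therefore give an uneven measure of the spread of these genes, narrow for MAP1B and TUBB6 and wide for KIF5C, TUBB2B, TUBA1A, TUBB2A and MAP2.

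In the edgeR quasi-likelihood fit of rIL-17B against PBS with all 4 libraries, none of the 10 genes passed an adjusted p of 0.05, as none of the 16361 genes did (0.0%). At an unadjusted p under 0.05 the count was 226 genes, 1.38%, with MAP2 the only one of the 10, and DESeq2 also made 0 calls with 457 at the unadjusted level. The fitted log2 fold changes are given with standard errors derived from the F statistic of the test. They were -2.28 ± 1.82 for KIF5C, -1.89 ± 1.85 for TUBB2B, -1.38 ± 1.40 for KIF5A and -1.24 ± 0.62 for TUBA1A. Those of TUBB2A, MAP2, TUBB3 and MAP1B were -1.003 ± 0.48, -0.88 ± 0.29, -0.64 ± 0.61 and -0.62 ± 0.41. TUBB6 was at -0.04 ± 0.11 and MAPT at 0.19 ± 0.23. The errors of KIF5C, TUBB2B and KIF5A were about as large as the values, that of KIF5A larger, since the rIL-17B libraries lay so far apart. The median over the 10 was -0.94, against -0.03 over all genes, and the adjusted p-values of edgeR ran from 0.661 to 0.857. With 2 libraries in each group the smallest p of an exact permutation test is 0.333, so none was run.

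Without rIL-17B replicate 1, edgeR called 504 of 17103 genes, 394 of them lower (2.3%) and 110 higher (0.643%). Of the 10 genes, 5 were called and all of these were lower: TUBA1A at -0.65 ± 0.09, TUBB2A at -0.53 ± 0.14, TUBB2B at -0.89 ± 0.14, MAP2 at -0.60 ± 0.11 and KIF5C at -1.28 ± 0.19 on the log2 scale. KIF5A at -0.44 ± 0.24 and MAP1B at -0.18 ± 0.08 did not pass, nor did TUBB3 at -0.12 ± 0.55, MAPT at 0.15 ± 0.22 and TUBB6 at 0.04 ± 0.09. This fit compares 1 rIL-17B library with 2 PBS libraries and assumes that it varies as they do. Without rIL-17B replicate 2 it called 9489 of 17223 genes (55.1%), with 7 of the 10 genes among the 31.9% that were lower. The calls of either fit rest on a single treated library.

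**Figure D4:**
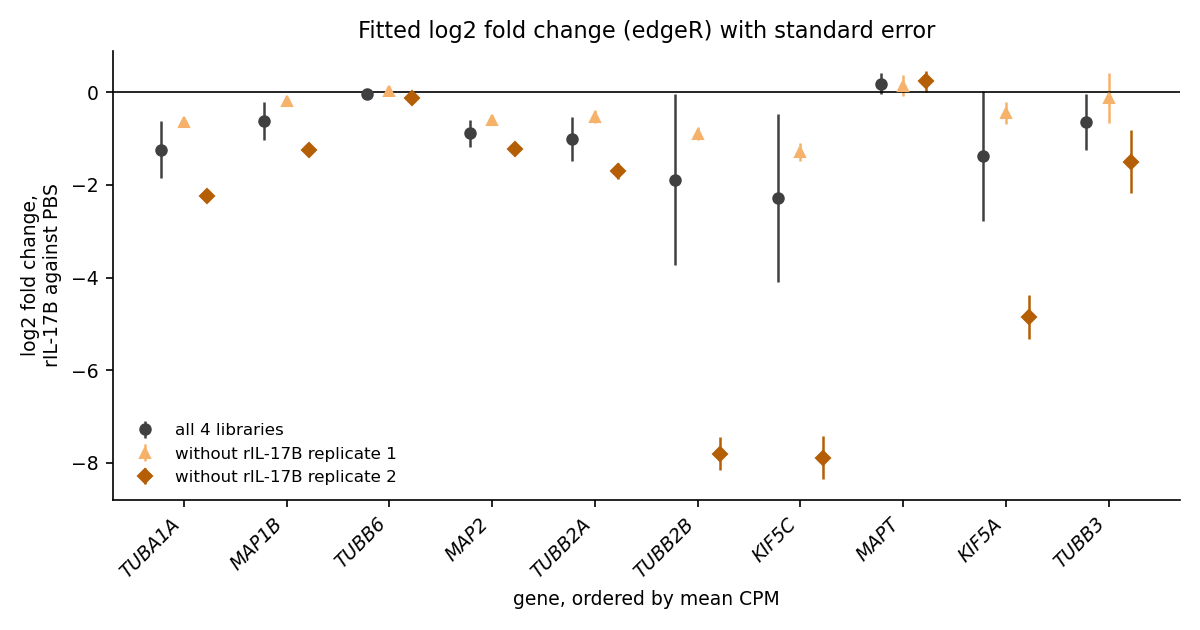
Log2 fold change of rIL-17B against PBS for the 10 genes from the edgeR fit, with all 4 libraries, without rIL-17B replicate 1 and without rIL-17B replicate 2. Lines show a standard error derived from the F statistic. TUBB2B moves from -1.89 with all libraries to -0.89 without rIL-17B replicate 1, and TUBB6 stays between -0.12 and 0.041.

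The wider microtubule and transport machinery was read from 9 lists with 164 genes, of which 145 passed the filter on low counts. None was called with all 4 libraries, and none had an unadjusted p under 0.05. Of the 145, 40 had both rIL-17B libraries below both PBS libraries and 40 had both above, where 27.5% and 31.5% of all genes tested did. The split depended on the scaling, since on TMM CPM, which rescales the library totals, 52 were below and 34 above, against 30.3% and 28.6% of all genes. The 10 genes kept 8 below and 1 above on that scale. The 7 tested of the 14 other alpha- and beta-tubulins had a median log2 fold change of 0.43, with 6 positive and 1 negative, and one of 0.15 with no call without rIL-17B replicate 1. TUBB, the main beta-tubulin of dividing cells, was at 935, 912, 1606 and 1019 CPM and TUBB4B at 372, 379.6, 708 and 444 CPM, with fitted values of 0.42 ± 0.23 and 0.53 ± 0.23, or 0.14 ± 0.08 and 0.24 ± 0.08 without rIL-17B replicate 1. TUBB4A, a brain isotype, stayed between 4 and 6 counts. TUBB and TUBB4B thus lay opposite to TUBA1A, TUBB2A and TUBB2B in rIL-17B replicate 1, while TUBB1, the negative gene, had 1210, 1096, 6 and 1351 counts and lay on the side of TUBB2B there.

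The lists that make, fold and modify microtubules showed little shift in the median. It was 0.14 for the 4 gamma-, delta- and epsilon-tubulins (-0.02 without rIL-17B replicate 1), 0.0035 for the 7 folding cofactors, -0.07 for the 18 tested modifying enzymes and -0.01 for the 11 tested kinases of tau and MAPs. TTL, the tubulin tyrosine ligase, was at 84.9, 87.7, 125 and 97.1 CPM, and GSK3B, a tau kinase, at 111, 118, 108 and 116 CPM. The median of the 25 tested dynein and dynactin genes was -0.01, with DYNC1H1, the dynein heavy chain, at 692, 749, 899 and 709 CPM. The 18 tested kinesins other than KIF5A and KIF5C had a median of -0.07 and the 20 tested cargo adaptors one of -0.25 (-0.11 without rIL-17B replicate 1), with KLC1, a kinesin-1 light chain, at 31.2, 30.2, 27.7 and 33.4 CPM. Per library total, the dynein and dynactin genes summed to 2927, 2972, 3379 and 2968 CPM, the highest in rIL-17B replicate 1. On TMM CPM this rise would be smaller, as the TMM factor was 1.07 in that library and at most 0.982 in the others. KIF5A and KIF5C together were at 0.342 CPM in rIL-17B replicate 1, against 12.4 to 29.6 CPM in the other libraries.

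The 35 tested other microtubule-binding proteins had a median of -0.24 and were mixed. Without rIL-17B replicate 1 the median was -0.10. MAP4 was at 536, 554, 663 and 567 CPM and MAPRE1, which tracks growing plus ends, at 185, 183, 223 and 187 CPM. DPYSL3, a collapsin response protein, was at 347, 353, 17.2 and 293 CPM. MAP6, which protects neuronal microtubules from cold, had 101, 106, 0 and 91 counts, so rIL-17B replicate 1 was at least 35.02-fold lower than the PBS libraries at the floor of 3 counts per library. MAP1S, a small relative of MAP1B, was at 19.1, 21.96, 13.2 and 18.6 CPM. Without rIL-17B replicate 1, edgeR called 8 of 146 list genes, 7 lower and 1 higher, where 2.3% of all genes were called lower and 0.643% higher. The lower ones were DPYSL5, CRMP1, CLIP2 and GAP43 of the microtubule-binding list, the kinesins KIF1A and KIF13B and the adaptor MAPK8IP1, and the higher one was the kinesin KIF26A. They are named after their values were seen. KIF1A, the motor of synaptic vesicle precursors, was at 13.8, 28.1, 0.274 and 9.63 CPM, and its fitted value in that fit was -1.10 ± 0.17. GAP43, a growth cone protein, had 455, 526, 5 and 380 counts. Both shared the order of libraries of KIF5C and TUBB2B. STMN2, DCX and GAP43 of this list are also among the 17 neuron markers.

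**Figure D5:**
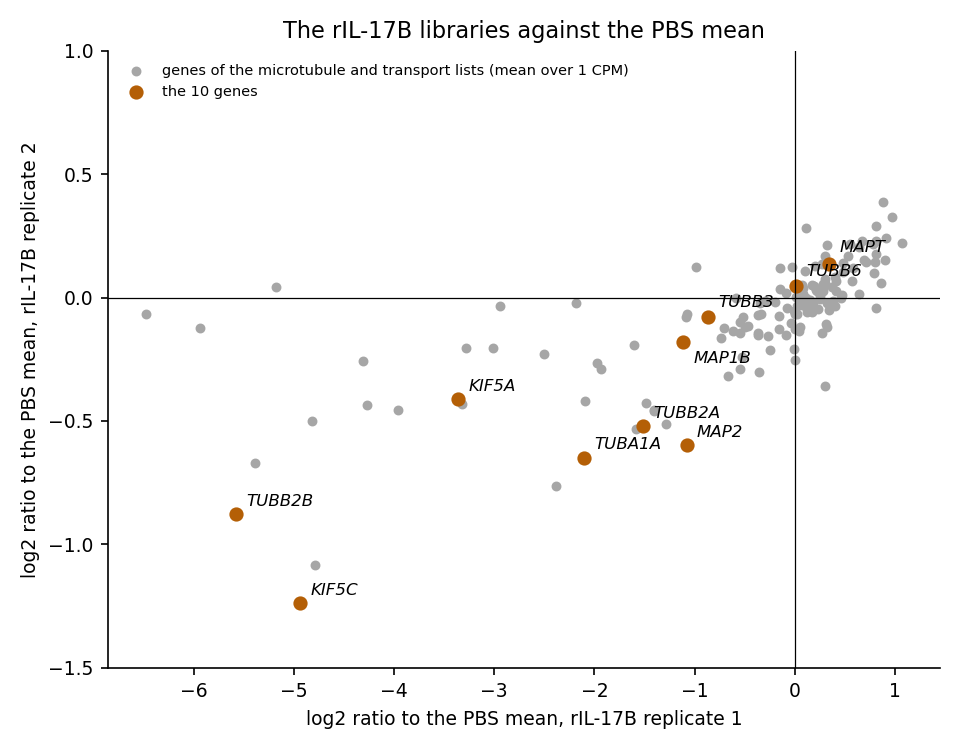
Log2 ratio to the PBS mean, with 0.5 CPM added, in rIL-17B replicate 1 (horizontal) and rIL-17B replicate 2 (vertical) for the 10 genes and for 144 genes of the microtubule and transport lists with a mean over 1 CPM. KIF5C at -4.94 and -1.24 and TUBB2B at -5.58 and -0.88 lie at the lower left, while several other genes below -5 in rIL-17B replicate 1 lie near 0 on the vertical axis.

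The genes most like 2 of the members over the 4 libraries were found by the distance between log2 levels centred on the PBS mean, among tested genes outside the set. The nearest to TUBB3 were HYOU1, RNF208, DDR2, CCND1 and IL17RA, at distances of 0.0430 to 0.0624. TUBB3 rests on 8 to 24 counts, so its neighbours may be set by counting error. Among the nearest to MAP1B, which had 2281 counts or more, were RAB2B, DCAF5, ICAM1 and C14orf28, at 0.0289 to 0.0459. DDR2, for example, was at 354, 332, 191 and 323 CPM and RAB2B at 18.5, 19.4, 8.62 and 16.5 CPM. With 4 libraries, many genes can be this close, and likeness says nothing of shared function.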

How the data were processed

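HGC-27 RNA was sequenced by Smart-seq2, which primes on poly(A) with oligo-dT and amplifies cDNA by PCR (per the labels). The authors deposited counts, whole numbers of reads per gene name, without normalization and without genes at 0. The submitters' processing notes name Bowtie2 2.2.3, HISAT2 2.1.0, TopHat2, HTSeq 0.6.0 and hg38, with no role or order. The annotation, the read length and the use of strand are not given in the sources used here.

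Names listed more than once were used once, and between 22 and 25 date-like names per library were left out. Of 31907 names, 31217 were found once in GENCODE 29, the source of coordinates and merged exon lengths. CPM is the count over the library total times 1000000, and groups and replicates came from the labels. Members and lists were chosen with earlier results of these data known. Named genes were the 10 members, 11 close relatives, the 3 highest of each list and the nearest 5 to TUBB3 and to MAP1B, of which the ones that a result turns on are printed. A gene among the nearest to MAP1B is not reported here.

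rIL-17B was compared with PBS by edgeR 4.0.16 in R 4.3.3 (TMM, filterByExpr, quasi-likelihood F test, Benjamini-Hochberg over all genes tested, adjusted p under 0.05). TMM factors ran from 0.970 to 1.07. Standard errors printed with edgeR values are the absolute log2 fold change divided by the square root of the F statistic. Intervals of ratios are exact binomial (95%, Clopper-Pearson) intervals on the counts of 2 sets of libraries. The fit was tested on simulated counts with 200 genes changed 4-fold, up or down, before the filter. All genes and libraries of a simulation were given the same dispersion. For simulated counts as variable as the PBS libraries, 187 of the 192 changed genes left were called, with 5 false calls among 16024 genes. For counts as variable as all 4 libraries within groups, it was 9 of 194 among 15872. Neither simulation holds a single library that stands apart, as these data do. The libraries were not paired by replicate number in the main fit. The deviations of same-numbered libraries from their group means correlated at 0.0800. This cannot exclude a pairing, since rIL-17B replicate 1 stood so far apart that it dominates the deviations of its group. Alternatives were DESeq2 1.42.0, upper-quartile scaling, library totals alone, other filters, summed repeats, a replicate block, other pseudocounts and each library left out. Identity was computed from coding sequences of GENCODE 29 with Biopython 1.88, since protein sequences were not used here.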

Additional observations from a re-analysis of the deposited data

How the results depend on the processing

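Leaving out 1 library decided the calls. Over the 4 fits without 1 library, the genes called ranged from 0 to 9489, the members called from 0 to 7, the list genes called from 0 to 85, and the median log2 fold change of the members from -1.59 to -0.48. Without rIL-17B replicate 1 the counts were 504, 5 and 8, and without rIL-17B replicate 2 they were 9489, 7 and 85, against 0 in each with all libraries and without either PBS library. The fit with a replicate block called 0 genes and gave a median of -1.001 for the members, and it changed no call. It moved TUBB2B from -1.89 to -3.67, KIF5C from -2.28 to -3.88 and KIF5A from -1.38 to -2.46. The labels give no reason to pair them by number.

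DESeq2, upper-quartile scaling, library totals, no filter, at least 10 counts in every library and summed repeats also called 0 genes, with a median of the members between -0.95 and -0.79. At an unadjusted p under 0.05 these gave 457, 190, 161, 879, 462 and 227 genes, against 226. At 10 counts in every library TUBB2B, KIF5C, KIF5A and TUBB3 dropped out. TUBB6 changed sign, from -0.04 to 0.029 with library totals, and between -0.12 and 0.041 over the fits without 1 library, with no call. The other members kept their sign in every fit.

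Without division by length, TUBB2A held 1.46%, 1.99% and 1.09% of the beta-tubulins in PBS replicate 1, PBS replicate 2 and rIL-17B replicate 2, TUBB2B 2.28% in PBS replicate 2, and KIF5C 4.46% and 7.34% of the kinesin-1 heavy chains in the PBS libraries, since the genes differ in exon length. A pseudocount of 0.1 or 1 CPM moved the log2 ratio of TUBB2B in rIL-17B replicate 1 to -6.99 or -4.77 and that of KIF5C to -6.66 or -4.07. On TMM CPM the log2 ratio of TUBB6 in rIL-17B replicate 1 moved from 0.014 to -0.12 and that of MAP1B from -1.12 to -1.25. With 1 to 8 counts, the levels of KIF5C, TUBB2B, KIF5A and TUBB3 in that library are limited by depth.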

Other observations

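Some microtubule and transport genes outside the 10 were nearly absent from rIL-17B replicate 1 and close to the PBS libraries in rIL-17B replicate 2. They were picked after their values were seen. TUBB1, the beta-tubulin of platelets, was at 0.513% (exact 95% interval 0.188 to 1.12) and 96.1% (89.8 to 103) of the PBS level in rIL-17B replicate 1 and rIL-17B replicate 2. FEZ1, a kinesin-1 adaptor of axons, had 557, 432, 1 and 552 counts, and rIL-17B replicate 2 was at 91.5% (82.3 to 102). STMN2, which destabilises microtubules in growth cones, had 343, 175, 0 and 318 counts. Its rIL-17B replicate 2 was at 101% (87.3 to 116) of the PBS libraries together, and rIL-17B replicate 1 at least 87.6-fold lower than them. Its PBS libraries were unlike, with a ratio of PBS replicate 2 to PBS replicate 1 of 0.630 (0.522 to 0.758). KIF5C, TUBB2B and KIF1A, with 1, 2 and 4 counts in rIL-17B replicate 1, were at 41.9%, 54.8% and 47.6% of the PBS level in rIL-17B replicate 2. For KIF1A the PBS libraries were themselves apart by a ratio of 2.03 (1.71 to 2.41).

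KIF26A, a kinesin-like gene, was the one list gene called higher without rIL-17B replicate 1, at 154, 162, 309 and 198 CPM and a fitted log2 fold change of 0.32 ± 0.09 in edgeR. NEFH, the heavy neurofilament, was a neuron marker that lay the other way from UCHL1 and GAP43, with 322, 255, 612 and 424 counts, and SNAP25 had 363, 295, 364 and 406 counts.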
